A study of Homo sapiens with 12 samples.

Results

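The 9 enzymes that make lanosterol and turn it into cholesterol, of 19901 protein-coding genes counted, were followed through acute depletion of KAP1 and a brief serum stimulus in human cells. They are LSS, CYP51A1, TM7SF2, MSMO1, NSDHL, HSD17B7, EBP, SC5D and DHCR7, and 8 of the 9 were among the 13093 genes tested. All 8 had higher mean levels in dTAG-treated than in DMSO-treated cells, both without and with serum. Without serum 7 of the 8 were called higher, beside 0.962% of all genes tested. With serum 6 of the 8 were called higher, beside 0.611%. The genes were selected on their place in the pathway, with the dTAG and serum comparisons of these same libraries already known. Their values and calls are therefore a description of the members and no independent evidence about the list.

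RNA-Seq was carried out on HCT116 cells, a human colorectal carcinoma line, of the genotype KAP1_dTAG, clone D5. In this line a degradation tag was joined to KAP1, the chromatin protein encoded by TRIM28, and 1 single-cell-derived clone supplied every library, so no group is free of the tag. Cells in all groups were starved of serum and spent the last 8 h in DMSO, the solvent, or in dTAG, a ligand that delivers the tagged protein to the proteasome. Starved cells kept in DMSO (DMSO-S0) or dTAG (dTAG-S0), and cells given serum for 30 min after DMSO (DMSO-S30) or dTAG (dTAG-S30), made up 4 groups of 3 libraries each. No untagged cells given dTAG were among the libraries, so depletion of KAP1 and other actions of the ligand cannot be told apart. The study calls the 3 libraries of a group biological replicates, and the p-values measure the spread between them.

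Cholesterol is built from acetyl-CoA through mevalonate and squalene, and the enzymes described here carry out the late steps on the ring system, in the membrane of the endoplasmic reticulum. LSS closes the ring, CYP51A1 removes a methyl group, TM7SF2 reduces the double bond left behind, and MSMO1, NSDHL and HSD17B7 act in turn to remove a pair of further methyl groups. EBP, SC5D and DHCR7 then shift, add and remove double bonds. When sterols in the membrane are low, the transcription factor SREBP-2 is released from the endoplasmic reticulum and raises transcription of these genes. It acts on promoters that commonly also hold sites for NF-Y, which reads CCAAT, and for Sp1, which reads GGGCGG.

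The sequence before the start of 5 members is printed. They were picked among members called higher with dTAG without serum because the stretch shown holds CCAAT, so sharing these letters is no result. EBP, also called higher, holds 3 copies in its own stretch and is not printed. All are from RefSeq on GRCh38.p14 and run 5′ to 3′ on the strand of the gene. Only bases in no exon of GENCODE v44 are shown, and none past the start of the gene's row in the count table where that start lies in the window, and capitals mark CCAAT on either strand (ATTGG is CCAAT on the other strand). The windows are chr11:71448436-71448561 on the minus strand for DHCR7, chr4:165327469-165327622 on the plus strand for MSMO1 and chr21:46228825-46228974 on the minus strand for LSS. Those on the plus strand for the other 2 genes are chrX:152830863-152830966 for NSDHL and chr1:162790502-162790701 for HSD17B7.
DHCR7: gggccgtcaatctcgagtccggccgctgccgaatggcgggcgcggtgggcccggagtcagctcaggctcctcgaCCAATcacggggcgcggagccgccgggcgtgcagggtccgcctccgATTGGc
MSMO1: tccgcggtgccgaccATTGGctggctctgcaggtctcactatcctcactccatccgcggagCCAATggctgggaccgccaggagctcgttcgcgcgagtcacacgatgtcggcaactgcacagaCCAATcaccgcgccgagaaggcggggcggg
LSS: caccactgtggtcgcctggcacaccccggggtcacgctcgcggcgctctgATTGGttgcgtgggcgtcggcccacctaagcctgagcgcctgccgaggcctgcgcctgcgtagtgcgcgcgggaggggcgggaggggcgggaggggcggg
NSDHL: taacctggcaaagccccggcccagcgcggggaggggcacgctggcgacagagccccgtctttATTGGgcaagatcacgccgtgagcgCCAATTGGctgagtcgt
HSD17B7: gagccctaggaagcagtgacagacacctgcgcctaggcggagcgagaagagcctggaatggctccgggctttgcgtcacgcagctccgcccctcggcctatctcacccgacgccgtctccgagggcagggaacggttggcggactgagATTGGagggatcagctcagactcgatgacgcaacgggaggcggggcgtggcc

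CCAAT was present, on either strand, in the 250 bases before the start in 8 of the 9 members, all but CYP51A1. TM7SF2, which was not called with dTAG, was among the 8, with CCAAT at bases -74 to -70. The same letters were in 32.0% of the 35116 promoters listed and in 41.8% of the 10413 tested genes that had an entry. MSMO1 held 4 copies, at bases -185 to -181, -139 to -135, -76 to -72 and -34 to -30 counted back from the start, the last of them past the stretch shown. NSDHL held 5 copies, 3 of them in the stretch shown, and a pair of these overlap as CCAATTGG. In the DHCR7 entry shown the copies lay at bases -94 to -90 and -48 to -44, and that entry lies inside the gene's row in the count table. Another DHCR7 entry (chr11:71449044-71449243, minus strand) held 0 copies. GGGCGG was also in 8 of the 9 members, all but NSDHL, against 42.6% of all promoters listed. By gene it was in 74.9% of the tested genes with an entry. Members and tested genes were counted if any of their listed promoters held the letters. TCACNCCAC, 1 form of a sterol response element, was in none of the 9 members and in 0.883% of all promoters. These matches are a description of letters, and binding was not measured here.

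Total counts per library ran from 20537682 to 26278707, of which the ERCC spike-in transcripts took 7.97 to 9.37% and mitochondrial genes 7.18 to 9.04%. Levels are given as normalised CPM, the count of a gene scaled to the size of its library. FOS, an immediate early gene, went from a mean of 5.48 CPM in DMSO-S0 to 485 CPM in DMSO-S30, as the serum labels say. TRIM28 RNA did not pass the test for dTAG (log2 fold change -0.06 without and -0.05 with serum), and it gives no check of the depletion, which acts on the protein. The epithelial genes EPCAM and KRT8 stood at 263 and 419 CPM in DMSO-S0, while VIL1, another epithelial marker, was at 0.0820 CPM.

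The members differed widely in level. Per kilobase of gene, introns included, MSMO1 was highest in DMSO-S0 at 8.55 ± 0.549 CPM per kb (SD, n = 3). TM7SF2 (5.06 CPM per kb), SC5D (4.55 CPM per kb) and EBP (4.34 CPM per kb) came next, and each overlapped its neighbour in the range of its 3 libraries. DHCR7 (3.76 CPM per kb) and LSS (1.75 CPM per kb) followed, without overlap. HSD17B7 (0.984 CPM per kb) and NSDHL (0.840 CPM per kb) overlapped each other at the low end. This order depends on gene length. Before division by length, TM7SF2 was at 23.0 CPM in DMSO-S0, below LSS at 71.2 CPM and DHCR7 at 92.7 CPM. In dTAG-S0, MSMO1 stayed highest at 12.5 CPM per kb and NSDHL lowest at 1.02 CPM per kb, while DHCR7 reached 5.98 CPM per kb, level with EBP (5.88), SC5D (5.56) and TM7SF2 (5.40), whose library ranges overlapped its own.

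CYP51A1, the demethylase of lanosterol (ENSG00000001630.15, hg38 chr7:92112151-92142952, minus strand), could not be measured from its row. It held 1 count in DMSO-S0 replicate 1, 2 counts in dTAG-S30 replicate 1 and 0 counts in the other 10 libraries. In the same table the row of LRRD1 covers 30794 of its 30802 bases on the same strand, and LRRD1 itself held 15 to 35 counts. How reads shared by overlapping genes were assigned is not given in the sources used here, so the row says nothing of the level of CYP51A1 RNA, and the gene was not tested.

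**Figure D1:**
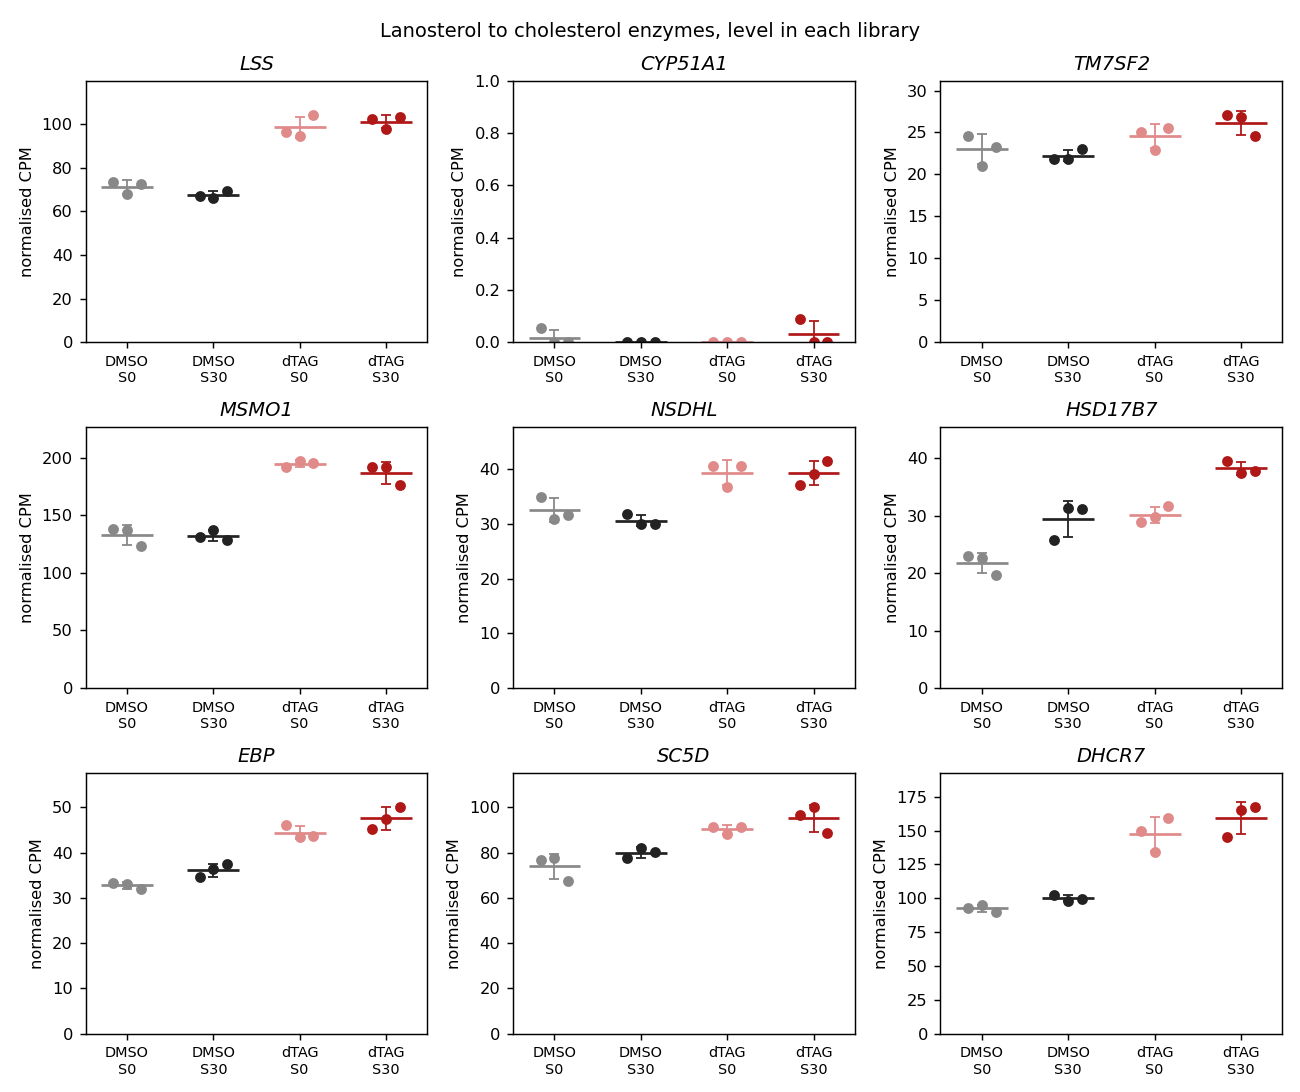
Normalised CPM of each of the 9 genes (vertical axes, starting at 0) in the 4 groups. Points are libraries, horizontal lines are means and bars are 1 SD of 3 libraries. The dTAG libraries lie above the DMSO libraries at the same serum time in 7 of 8 tested genes without serum and in 8 of 8 with serum. This held for 8.5% and 7.62% of all genes tested. The row of CYP51A1 lies at or near 0.

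The comparison of dTAG with DMSO asked which of these genes differed after 8 h in dTAG. It was made separately in starved and in serum-treated cells, and these comparisons use different libraries and share only the fit. Without serum, 7 of the 8 members tested were called higher at an adjusted p under 0.05 (edgeR quasi-likelihood F-test, Benjamini-Hochberg adjustment over 13093 genes) and none was called lower, where 0.962% of all genes tested were called higher and 0.512% lower. With serum, 6 of the 8 were called higher and none lower, beside 0.611% higher and 0.642% lower over all genes. Higher calls made up 65.3% of the calls over all genes without serum as scaled here, and 80.3% when library sizes came from the ERCC counts. The changes of the members were small, between 1.07-fold and 1.61-fold without serum and between 1.17-fold and 1.57-fold with it. In bulk RNA of this kind, a change in the mix of cells and a change in RNA per cell cannot be told apart.

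LSS, lanosterol synthase (ENSG00000160285.14, hg38 chr21:46188141-46228824, minus strand), stood at 73.4, 67.8 and 72.6 CPM in the DMSO-S0 libraries and at 96.7, 94.7 and 104 CPM in the dTAG-S0 libraries. The groups did not overlap, and the log2 fold change was 0.47 ± 0.0586 (SE, adjusted p = 1.21e-05, edgeR). With serum it stood at 67.0, 66.1 and 69.6 CPM in DMSO-S30 and at 102, 97.8 and 103 CPM in dTAG-S30. These groups again lay apart, and the log2 fold change was 0.57 ± 0.0600 (adjusted p = 1.29e-06). LSS was the second largest change among the members with serum.

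TM7SF2, the sterol reductase that follows CYP51A1 (ENSG00000149809.14, hg38 chr11:65111845-65116384, plus strand), moved least. It stood at 24.6, 21.1 and 23.3 CPM in DMSO-S0 and at 25.1, 22.9 and 25.6 CPM in dTAG-S0. These overlapped, and the log2 fold change of 0.10 ± 0.0823 did not pass the test (adjusted p = 0.673). With serum the values were 21.9, 21.9 and 23.0 CPM in DMSO-S30 and 27.1, 26.9 and 24.5 CPM in dTAG-S30. All 3 dTAG libraries were then above all 3 DMSO libraries, but the log2 fold change of 0.23 ± 0.0836 did not pass either (adjusted p = 0.262). The gene shares 16 bases at its start with VPS51, which lies on the same strand.

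MSMO1, the methylsterol oxidase that starts the removal of the methyl groups (ENSG00000052802.12, hg38 chr4:165327623-165343160, plus strand), was the most abundant member. It stood at 138, 137 and 123 CPM in DMSO-S0 and at 192, 197 and 196 CPM in dTAG-S0. The dTAG libraries lay far above and close together, and the log2 fold change was 0.56 ± 0.0584 (adjusted p = 6.37e-07, edgeR). The serum-treated libraries gave 131, 137 and 128 CPM with DMSO and 192, 192 and 176 CPM with dTAG. They did not overlap, and the log2 fold change was 0.49 ± 0.0594 (adjusted p = 1.07e-05).

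NSDHL, the dehydrogenase that acts next (ENSG00000147383.10, hg38 chrX:152830967-152869729, plus strand), changed less. Its values were 35.0, 31.0 and 31.7 CPM in DMSO-S0 and 40.7, 36.7 and 40.7 CPM in dTAG-S0. The gap between the groups was narrow, from 35.0 to 36.7 CPM, and the log2 fold change was 0.29 ± 0.0716 (adjusted p = 0.0317). With serum it stood at 31.8, 30.0 and 30.0 CPM in DMSO-S30 and at 37.1, 39.2 and 41.6 CPM in dTAG-S30. The groups lay apart, and the log2 fold change was 0.33 ± 0.0736 (adjusted p = 0.0150). The call without serum was lost without DMSO-S0 replicate 2 (adjusted p = 0.140), DMSO-S0 replicate 3 (0.0557), dTAG-S0 replicate 1 (0.174) or dTAG-S0 replicate 3 (0.134), and the call with serum without DMSO-S30 replicate 2 (0.157) or DMSO-S30 replicate 3 (0.103).

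HSD17B7, the ketosteroid reductase that completes the removal (ENSG00000132196.13, hg38 chr1:162790702-162812817, plus strand), had the second lowest level per kilobase of the members tested. It stood at 23.0, 22.6 and 19.7 CPM in DMSO-S0 and at 28.8, 29.8 and 31.7 CPM in dTAG-S0. The groups lay apart, and the fitted log2 fold change was 0.49 ± 0.0823 (adjusted p = 0.000907). With serum the values were 25.7, 31.3 and 31.1 CPM in DMSO-S30 and 39.6, 37.5 and 37.8 CPM in dTAG-S30, and the log2 fold change was 0.35 ± 0.0800 (adjusted p = 0.0202). These groups too did not overlap, and the call with serum was lost without replicate 1 of DMSO-S30 (adjusted p = 0.0672) or of dTAG-S30 (0.0955). A near-identical copy, HSD17B7P2 (hg38 chr10:38356380-38378505), matches its transcript at 98.64% of 1394 aligned bases, so the values of HSD17B7 are uncertain to the extent that reads of the pair could not be separated.

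EBP, the isomerase that shifts the ring double bond (ENSG00000147155.10, hg38 chrX:48521158-48528716, plus strand), stood at 33.3, 33.1 and 31.9 CPM in DMSO-S0 and at 46.2, 43.4 and 43.8 CPM in dTAG-S0. The libraries of each group were tightly clustered, and the log2 fold change was 0.45 ± 0.0667 (adjusted p = 0.000158). With serum it stood at 34.6, 36.4 and 37.4 CPM in DMSO-S30 and at 45.2, 47.5 and 50.2 CPM in dTAG-S30. The log2 fold change was 0.38 ± 0.0674 (adjusted p = 0.00183). Neither pair of groups overlapped. In GENCODE v44 another protein-coding model on the same strand covers 91.43% of EBP and has no row in the count table.

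SC5D, the sterol desaturase that adds a double bond (ENSG00000109929.9, hg38 chr11:121292453-121308694, plus strand), stood at 76.5, 77.5 and 67.6 CPM in DMSO-S0 and at 91.5, 88.1 and 91.3 CPM in dTAG-S0. DMSO-S0 replicate 3 was low, and the log2 fold change was 0.30 ± 0.0629 (adjusted p = 0.00984). Without that library the difference lay at the threshold (log2 fold change 0.23, adjusted p = 0.0506). With serum SC5D stood at 77.7, 82.1 and 80.3 CPM in DMSO-S30 and at 96.4, 100.3 and 88.6 CPM in dTAG-S30. The groups did not overlap, but the log2 fold change of 0.24 ± 0.0636 fell just short of a call (adjusted p = 0.0659). Of the 12 fits that left out 1 library, SC5D with serum was called in 6 and not in the rest, where the adjusted p reached 0.219 (edgeR). The lowest was 0.00278 without dTAG-S30 replicate 3. The other 5 calls came on leaving out a library without serum, which enters this comparison only through the shared fit. These libraries were DMSO-S0 replicate 1 (0.0211), DMSO-S0 replicate 2 (0.0236), DMSO-S0 replicate 3 (0.00965), dTAG-S0 replicate 1 (0.0406) and dTAG-S0 replicate 3 (0.0400).

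DHCR7, the reductase that carries out the last step to cholesterol (ENSG00000172893.15, hg38 chr11:71428193-71452868, minus strand), changed most. It stood at 93.0, 95.2 and 89.9 CPM in DMSO-S0 and at 149.5, 134 and 159 CPM in dTAG-S0. The lowest dTAG library was far above the highest DMSO library, and the log2 fold change was 0.68 ± 0.0639 (adjusted p = 8.67e-08, edgeR). With serum it stood at 103, 98.2 and 99.4 CPM in DMSO-S30 and at 145, 165 and 168 CPM in dTAG-S30. The log2 fold change was 0.65 ± 0.0654 (adjusted p = 6.89e-07), again with no overlap. Ranked by p over all 13093 genes, DHCR7 held rank 7 without serum and rank 4 with serum, and ranked by log2 fold change it held ranks 61 and 64.

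**Figure D2:**
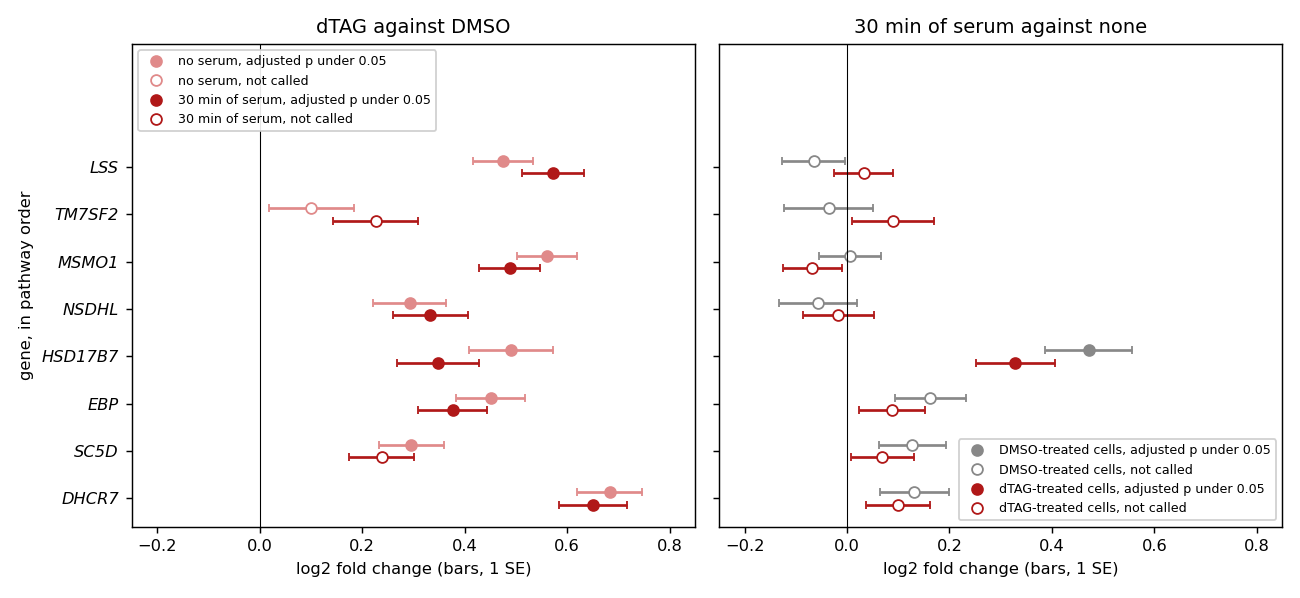
Fitted log2 fold changes of the 8 genes tested, in pathway order, for dTAG against DMSO (left) and for 30 min of serum against none (right). Bars are 1 SE from the edgeR fit and filled points passed an adjusted p of 0.05. Every dTAG value lies above 0, from 0.10 for TM7SF2 to 0.68 for DHCR7, while HSD17B7 alone has filled points for serum.

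The members were also read against all genes tested. Their median log2 fold change for dTAG was 0.46 without serum, where the median of all genes was -0.01, and 0.36 with serum, where it was 0.00 to 2 decimals. Taken library by library against the mean of the DMSO group, the median over the members was 0.42, 0.41 and 0.48 in the 3 dTAG-S0 libraries. It was 0.38, 0.38 and 0.43 in the dTAG-S30 libraries, so no single dTAG library carried the difference. All 3 dTAG libraries were above all 3 DMSO libraries in 7 of the 8 members without serum and in 8 of 8 with serum, and this held for 8.5% and 7.62% of all genes tested.

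Averaged over both serum times, which uses all 12 libraries, 7 of the 8 members were called higher and none lower, beside 2.41% of all genes called higher and 2.44% lower (higher calls made up 49.6% of these calls, and 65.5% with library sizes from the ERCC counts). The log2 fold changes were 0.67 for DHCR7, 0.52 for MSMO1, 0.52 for LSS, 0.42 for HSD17B7, 0.41 for EBP, 0.31 for NSDHL and 0.27 for SC5D. TM7SF2, at 0.16, was not called (adjusted p = 0.102), and it passed when dTAG-S30 replicate 3 was left out (0.19, adjusted p = 0.0498). The median was 0.42. These averages rest on the same libraries as the separate comparisons and add precision, not a new observation.

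Whether the effect of dTAG differed between starved and serum-treated cells was tested by the interaction. None of the 8 members passed (edgeR, adjusted p = 0.999963 for each), 0 of the 8 had an unadjusted p under 0.05, and DESeq2 called 0 as well. Over all genes 0% were called higher and 0.0458% lower in this test. The fitted differences ran from -0.14 ± 0.117 for HSD17B7 to 0.13 ± 0.120 for TM7SF2, so a difference of this size between the dTAG effects with and without serum was not detectable.

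Serum for 30 min, against none, asked a separate question, and here most members gave small values. In DMSO-treated cells 1 of the 8 members, HSD17B7, was called higher and none lower, where 9.39% of all genes were called higher and 17.9% lower. In dTAG-treated cells HSD17B7 was again the 1 member called higher, with none lower, beside 9.30% and 16.2% over all genes. The balance of calls over all genes depends on the scaling, since higher calls made up 34.4% of the calls in DMSO-treated cells as scaled here and 59.8% with TMM. In dTAG-treated cells they made up 36.4% and 61.6%.

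HSD17B7 rose with serum by a log2 fold change of 0.47 ± 0.0852 in DMSO-treated cells (adjusted p = 0.000132, edgeR), and the 3 DMSO-S30 libraries, from 25.7 to 31.3 CPM, were above the 3 DMSO-S0 libraries, from 19.7 to 23.0 CPM. In dTAG-treated cells it rose by 0.33 ± 0.0774 (adjusted p = 0.00239), from 30.1 ± 1.45 to 38.3 ± 1.13 CPM (SD, n = 3). The mean level without dTAG but with serum, 29.4 ± 3.17 CPM, was within the spread of the level with dTAG but without serum, 30.1 CPM. HSD17B7 was thus lowest with neither, intermediate with either and highest with both.

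The other 7 members gave log2 fold changes with serum from -0.07 to 0.16 after DMSO and from -0.07 to 0.10 after dTAG, none of them called. EBP (0.16 ± 0.0698, adjusted p = 0.0841), DHCR7 (0.13 ± 0.0668, adjusted p = 0.146) and SC5D (0.13 ± 0.0654, adjusted p = 0.152) had all 3 DMSO-S30 libraries above all 3 DMSO-S0 libraries, a pattern found in 13.8% of all genes. With TMM, EBP, SC5D and DHCR7 were called higher in DMSO-treated cells beside HSD17B7, where 1764 of all 13093 genes were called higher and 1187 lower. The median of the members was 0.07 after DMSO and 0.08 after dTAG, where all genes had medians of -0.07 and -0.06. LSS, MSMO1, NSDHL and TM7SF2 lay within 0.07 of no change in DMSO-treated cells. The serum and dTAG comparisons share libraries and are not independent of each other.

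**Figure D3:**
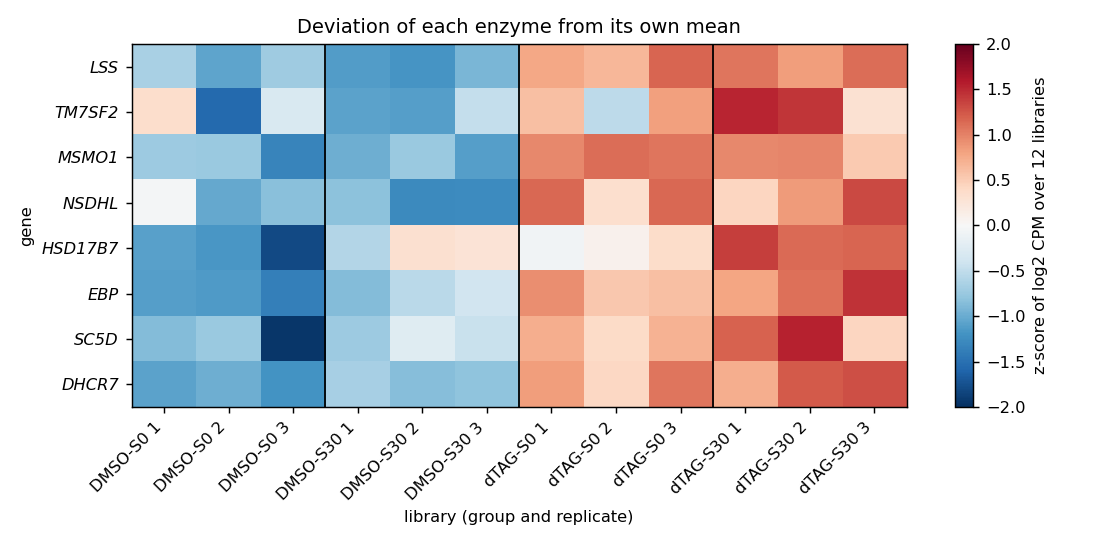
Each of the 8 genes tested (rows) in each of the 12 libraries (columns), as the z-score of its log2 CPM over the 12 libraries, blue below and red above the gene's own mean. The 6 dTAG libraries at the right are red for most genes and the 6 DMSO libraries at the left blue, with TM7SF2 and HSD17B7 the least uniform rows.

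Across the 12 libraries the members moved together. Over the 28 pairs of the 8 members, the Pearson correlation of log2 CPM had a median of 0.854 and ran from 0.538 to 0.970. Between members and all other genes tested the median was -0.04. All of these points share 4 groups, so group differences are part of the correlation. After the mean of each group was subtracted the median fell to 0.131, with 19 of 28 pairs above 0, while the median with other genes was 0.0370. Against the mean of the other members over 12 libraries, DHCR7 followed most closely (r = 0.971), then EBP (r = 0.955) and LSS (r = 0.945), and TM7SF2 least (r = 0.759). The mean z-score of the members was lowest in DMSO-S0 replicate 3 (-1.19) and highest in dTAG-S30 replicate 2 (1.14).

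The genes whose profile over the 12 libraries was most like the mean profile of the members were ranked by Pearson correlation. ACAT2, which makes acetoacetyl-CoA at the head of the pathway, came first (r = 0.980), followed by SCNN1A, a subunit of the epithelial sodium channel (r = 0.969), and SCD, a fatty acid desaturase (r = 0.964). ACSS2, acetyl-CoA synthetase (r = 0.956), BIRC3 (r = 0.954) and NFKBIA, the inhibitor of NF-kappaB (r = 0.947), came next. ACLY, which makes cytosolic acetyl-CoA (r = 0.945), PCYT2 of phosphatidylethanolamine synthesis (r = 0.943) and CDA, cytidine deaminase (r = 0.931), were also among the first 10. ACAT2, SCD, ACSS2 and ACLY are lipid genes of the lists described next, and the ranking is a description over libraries that share groups.

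The steps before and beside the members were described from lists drawn up by role. Of the 11 genes from acetyl-CoA to squalene epoxide, 10 were tested (GGPS1 was not), and 8 were called higher with dTAG without serum, with a median log2 fold change of 0.50. MVD, mevalonate diphosphate decarboxylase, was at 0.72 ± 0.0666 (adjusted p = 7.62e-08, edgeR), ACAT2 at 0.59, HMGCS1 at 0.60 and FDFT1, squalene synthase, at 0.51. With serum 8 were again called higher, with a median of 0.40. PMVK and SQLE were the 2 that were called in neither comparison. LBR, which carries out the same reduction as TM7SF2, was at 0.09 and 0.10 and, like TM7SF2, was called in neither comparison.

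Sterol sensing and uptake moved in part. Of 11 genes, 5 were called higher without serum and 4 with serum, with medians of 0.10 and 0.15. INSIG1, which holds the SREBP complex in the endoplasmic reticulum, was at 0.77 ± 0.0611 without serum (adjusted p = 1.63e-08, edgeR), and STARD4, a carrier of cholesterol between membranes, was at 0.51. INSIG1 alone among the genes of the lists passed the interaction test, in the downward direction (-0.62 ± 0.0873, adjusted p = 0.000694). Serum alone raised INSIG1 by 1.80 and NPC1, which moves cholesterol out of lysosomes, by 1.29 in DMSO-treated cells, both on the log2 scale. The members other than HSD17B7 gave no value above 0.16 in the same libraries.

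Fatty acid synthesis, the branch driven mainly by SREBP-1, gave 6 of 8 genes called higher without serum and 7 of 8 with serum, with medians of 0.35 and 0.39. ACSS2 was at 0.76 ± 0.0669 (adjusted p = 3.10e-08, edgeR), SCD at 0.63 and FASN, fatty acid synthase, at 0.48 without serum. Of 8 LXR targets and export genes and 7 tested users of cholesterol and oxysterols, 0 were called higher or lower in either comparison, beside 0.962% higher and 0.512% lower over all genes without serum and 0.611% and 0.642% with serum, so these counts do not set the lists apart from other genes. By the unadjusted p of the same edgeR fit, ABCA1, the cholesterol exporter, had 0.00752 without serum and 0.00148 with serum. Its log2 fold changes were -0.89 and -1.08, and averaged over serum it was called lower (-0.99 ± 0.213, adjusted p = 0.00493). ABCA1 held only 13 to 38 counts per library, near the count filter, with group means from 0.674 to 1.45 CPM. Of the 8 LXR targets and export genes, 4 lay above 0 without serum and 2 with serum. No test compared the lists with each other.

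**Figure D4:**
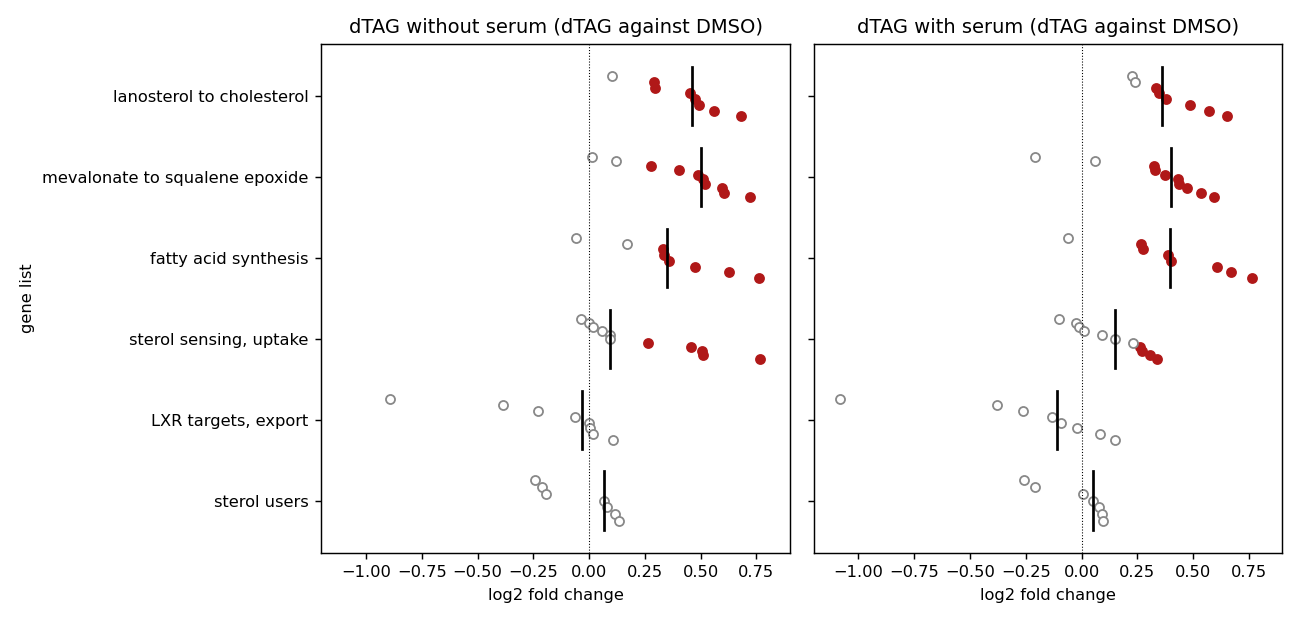
Fitted log2 fold changes for dTAG against DMSO without serum (left) and with serum (right), 1 point per gene tested and 1 row per list. Red filled points were called higher, open grey points were not called, and the vertical bars are medians, at 0.46 and 0.36 for the lanosterol to cholesterol enzymes, 0.50 and 0.40 for mevalonate to squalene epoxide and 0.35 and 0.39 for fatty acid synthesis. The LXR targets and the sterol users hold no red point.

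Markers of cells the culture should lack were looked at beside these results. Of 16 markers of fibroblasts, leukocytes, endothelium and hepatocytes, 3 passed the count filter, and none of these 3 was called with dTAG. PTPRC, of leukocytes, had group means of at most 0.855 CPM, VWF of at most 1.98 CPM, and COL1A1, which rose with serum, was at 14.7 CPM in DMSO-S0 and 13.05 CPM in dTAG-S0. Summed over the other 15 markers, the level ran from 3.63 to 4.49 CPM in the DMSO-S0 libraries, 2.86 to 4.50 CPM in dTAG-S0, 3.96 to 5.82 CPM in DMSO-S30 and 2.92 to 4.89 CPM in dTAG-S30. Of 7 epithelial markers 6 were tested, and none was called with dTAG without serum. With serum CDH1 was called higher (from 93.2 to 109.5 CPM). Averaged over serum, KRT19 (log2 fold change 0.19, adjusted p = 0.0163, edgeR) and CDH1 (0.17, adjusted p = 0.0181) were called higher, and their part in the values of the members was not tested.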

How the data were processed

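RNA was depleted of ribosomal RNA and ERCC spike-ins were added. The authors trimmed reads (Trim Galore 0.6.4), mapped them to hg38 and the ERCC sequences with STAR, and counted them over whole protein-coding genes with featureCounts (Subread 1.6.3), per the study's methods and the submitters' processing notes. The deposited values are raw counts for 19901 genes and 92 ERCC transcripts. Introns are included, so unspliced RNA adds to each value. Strand and multi-mapping settings are not given in the sources used here.

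Groups were taken from the sample titles and columns were matched by name. Of the gene identifiers, 19802 had a symbol. The test took genes reaching 10 counts in 6 or more of the 12 libraries (13093, with 69 ERCC transcripts), and 6808 were left out. Counts were scaled by upper quartile with 1 factor of unwanted variation from the ERCC transcripts, computed directly, since the number the authors used is not given. All 4 groups were fitted together in edgeR 4.0.16 (R 4.3.3, limma 3.58.1) with the two-sided quasi-likelihood F-test and Benjamini-Hochberg adjustment over all genes tested, called at an adjusted p under 0.05. The scripts were tested on simulated data. CPM are normalised, and log2 CPM used a prior count of 2. Counts carry no molecular identifiers, so amplification is not covered by the errors given.

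The members and lists were chosen with earlier results of these data known. Every member is named, and at most 4 genes of a list in each comparison, those called with the smallest p; ABCA1, PMVK, SQLE and LBR outside that rule were named after their values were seen. Some genes of the lists are not reported here. The 10 genes most like the members were ranked by Pearson correlation with their mean z-score. Promoters came from RefSeq (GRCh38.p14), with an entry for 9 of 9 members, and overlaps and exons from GENCODE v44 (the authors' own annotation version is not given in the sources used here). Within groups, replicate pairs differed by more than sampling noise (chi-square per degree of freedom 3.02 to 9.80 over 12 pairs). Alternatives were other scalings, 2 ERCC factors, no filter, the likelihood ratio test, DESeq2 1.42.0, a replicate block, only the 6 libraries compared, and leaving out each library. Groups of 3 are too small for an outlier test.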

Additional observations from a re-analysis of the deposited data

How the results depend on the processing

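For dTAG against DMSO no member changed direction under any alternative, and DHCR7, MSMO1, LSS and EBP were called under every one. The number of members called ran from 5 to 7 without serum, and from 5 to 7 with serum when 1 library was left out and 4 to 7 otherwise, the 4 being with library sizes set by the ERCC counts. With those sizes NSDHL (adjusted p = 0.154) and SC5D (0.0580) were lost without serum, and NSDHL (0.0575) and HSD17B7 (0.0955) with serum; NSDHL without serum was also lost with 2 ERCC factors (0.0695) and no filter (0.0613). SC5D with serum was gained under 7 of 9 of these other settings. The median of the members, leaving out 1 library, ran from 0.424 to 0.489 without serum and from 0.360 to 0.400 with serum. Calls over all genes for dTAG with serum, 80 higher and 84 lower, were 34 and 32 with ERCC sizes, 159 and 254 without the filter, 121 and 156 by the likelihood ratio test, 126 and 172 with DESeq2 and 122 and 145 with only the 6 libraries compared, and leaving out 1 library they ran from 39 to 115 higher and 48 to 152 lower. Without serum they went from 126 and 67 to 61 and 15 with ERCC sizes, 148 and 132 without the filter and 176 and 134 by the likelihood ratio test, and leaving out 1 library ran from 74 to 193 higher and 37 to 130 lower. The causes were not tested.

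For serum in DMSO-treated cells the members called were 4 with TMM, 4 with DESeq2 and 2 with 2 ERCC factors, and the median was 0.125 with TMM, 0.118 with ERCC sizes and 0.118 with DESeq2. Leaving out 1 library gave 1 to 3 members and medians from 0.00419 to 0.0959, the lowest without DMSO-S0 replicate 3; 3 members were called without dTAG-S30 replicate 3, and 2 without DMSO-S0 replicate 2 or dTAG-S0 replicate 1. In dTAG-treated cells 2 were called with TMM, 2 ERCC factors, no filter or only the 6 libraries compared, with medians of 0.145 (TMM), 0.121 (ERCC sizes) and 0.136 (DESeq2). Leaving out 1 library gave 1 to 2 members (2 without DMSO-S0 replicate 1) and medians from 0.0353 to 0.103, and for the interaction medians from -0.0740 to 0.0172. Over all genes, serum calls with ERCC sizes were 1175 higher and 591 lower after DMSO, in place of 1229 and 2343. After dTAG they were 1029 and 617, in place of 1217 and 2122. The calls after DMSO were 1764 and 1187 with TMM, 1686 and 1220 with DESeq2 and 1354 and 2726 with 2 ERCC factors. Those after dTAG were 1784 and 1112 with TMM and 1283 and 2255 with 2 ERCC factors. They were 1628 and 2918 with only the 6 libraries compared, and 1489 and 1981 of 17734 genes without the filter. Leaving out 1 library, calls ran from 994 to 1376 higher and 1705 to 2817 lower after DMSO. After dTAG these ranges were 989 to 1437 and 1507 to 2693.

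Some values near 0 that were never called changed sign. MSMO1 with serum in DMSO-treated cells was -0.00578 without the ERCC factor, and TM7SF2 was 0.0274 (TMM), 0.0180 (ERCC sizes) and 0.0200 (DESeq2). NSDHL with serum in dTAG-treated cells was 0.0596 (TMM), 0.0339 (ERCC sizes), 0.0111 (2 factors), 0.0477 (no filter), 0.0505 (DESeq2) and 0.0308 (6 libraries). DHCR7 in the interaction was 0.0237 (2 factors) and 0.0125 (no filter). Leaving out 1 library, MSMO1 ran from -0.0714 to 0.0321 with serum in DMSO-treated cells and from -0.106 to 0.0105 in dTAG-treated cells, and NSDHL there from -0.0694 to 0.0453. In the interaction MSMO1 ran from -0.116 to 0.00426, NSDHL from -0.0154 to 0.0942, SC5D from -0.0963 to 0.0239 and DHCR7 from -0.103 to 0.0769.

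Replicate numbers did not pair the libraries throughout. The correlation of same-numbered deviations ran from -0.15 to 0.14 over 18 pairs, 1 of them over 0.1. For different numbers it ran from -0.20 to 0.26 over 36 pairs, 6 of them over 0.1. Of 36 comparisons of a library with the 3 of another group, 16 were highest with the own number. Between DMSO-S0 and DMSO-S30 the same-numbered values, 0.064, 0.051 and 0.059, were all above those of different number, from -0.054 to -0.002. With the replicate block the same counts of members were called, 7 without and 6 with serum, with medians of 0.46 and 0.36. Over all genes the block gave 131 higher and 74 lower without serum, and 84 and 97 with serum. The average and the interaction could not be fitted with 6 libraries.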

Other observations

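Library-to-library variation within groups, which the comparisons use only as the measure of spread, was set against the members as well. After the mean of each group was subtracted, the genes closest to the mean profile of the lanosterol to cholesterol enzymes were SLBP, which binds histone mRNA (r = 0.939), INPP5D (r = 0.938), WDR6 (r = 0.931), CAMK2N2 (r = 0.920) and HERPUD1, an endoplasmic reticulum stress gene (r = 0.911), over 12 libraries. None of the first 10 genes by this measure was among the first 10 over the libraries as they stand. Within groups PMVK, of the mevalonate steps, had r = 0.743 and ACAT2 r = 0.738, while MVK had r = -0.49. These correlations rest on 3 libraries a group and are a description.

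With serum, 6 of the 10 tested genes from acetyl-CoA to squalene epoxide were called higher after DMSO and 5 after dTAG, where 9.39% and 9.3% of all genes were called higher. The members had 1 of 8 in each, which is near that share. IDI1, the isomerase that makes dimethylallyl diphosphate, was at a log2 fold change of 0.66 ± 0.0738 after DMSO (adjusted p = 6.73e-08, edgeR) and 0.52 ± 0.0697 after dTAG (adjusted p = 1.98e-06). The lists were not tested against each other.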
